A study of Drosophila melanogaster with 6 samples.

Results

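The control state of the fly intestinal progenitor was described from the 3 RNA-seq libraries labelled esgTS, out of 6 libraries in the series. The libraries were taken by their genotype label, and the remaining 3, labelled Patr1, were not compared with them. Each library came from GFP-positive cells sorted out of the dissociated guts of 100 adult female Drosophila melanogaster, which had been held at 29 °C for 6 days. The labels give the genotype only as esgTS and do not spell out its alleles or what drives GFP. In common use, the name stands for a Gal4 driver inserted at esg together with a temperature-sensitive Gal80, so that the driver is silent at low and active at high temperature, and the sort then selects cells by the activity of esg itself. For that reason a high level of esg is not independent of how the cells were obtained. Nothing says how far apart in time the 3 replicates were made, and the spread between them may be partly technical. Each replicate is a pool of animals and of the whole gut's regions.

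The adult fly midgut is renewed by intestinal stem cells, which divide to give another stem cell and a daughter that differentiates. Stem cells carry the ligand Delta and signal through Notch to their daughters: a strong signal directs a daughter, called an enteroblast, towards the absorptive enterocyte fate, and a weak one leaves it to form a hormone-secreting enteroendocrine cell. The zinc-finger factor Esg is shared by stem cells and enteroblasts and holds both undifferentiated. Their division is tuned by EGF, cytokine, insulin, Wnt and BMP signals from the epithelium, muscle and trachea around them.

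The 3 libraries held 2856583, 2958607 and 2627978 reads assigned to 17806 named genes, and 10885 to 11101 genes had at least 1 read in a library. Levels are given as CPM (reads of the gene per 1000000 reads of the library) and, where genes are set beside each other, as RPKM (CPM per kilobase of the deposited gene length), since only the latter allows for length. A gene was called on at 10 RPKM or more and 3 reads or more in each of the 3 libraries. It was called low if it reached 1 RPKM and 3 reads in each library without being on. Genes with 3 reads or fewer over all 3 libraries were called not detected, and the rest trace. Errors are SD over the 3 libraries (n = 3) throughout, and limits given for undetected genes are the level that 3 reads over the 3 libraries would give, which cover counting error only. Of 13931 protein-coding genes, 5796 (41.6%) were on, 1656 low, 1692 trace and 4787 (34.4%) not detected. Over all named genes, 6143 (34.5%) were on and 7623 (42.8%) not detected. These shares are the background for the gene lists described next.

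The median of the 5796 protein-coding genes on was 38.7 RPKM, the central 50% ran from 23.5 to 66.1, and 1 in 100 exceeded 318. The highest level among genes of at least 300 bases was 523 RPKM, for RpL41, which encodes the smallest ribosomal protein. Reads were spread over many genes: the 10 with most reads held 3.19 ± 0.17% of a library, the top 100 held 14.6 ± 0.41% and the top 1000 held 53.7 ± 0.63%. Ribosomal RNA genes took 0.0443 ± 0.0080% of reads and the mitochondrial genome 0.471 ± 0.061%, with the library of replicate 2 lowest for mitochondrial reads at 0.402%, against 0.516% and 0.495% in replicates 1 and 3. Per the labels' protocols the libraries were rRNA-depleted, so the first share is not a measure of rRNA in the cells.

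**Figure D1:**
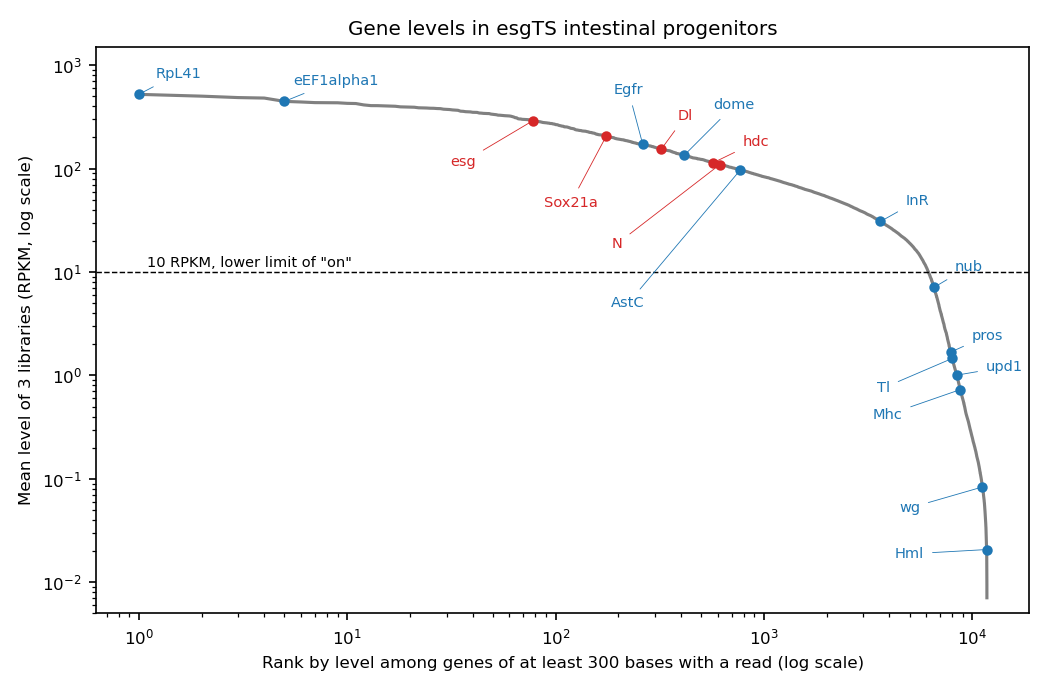
Mean level in the 3 esgTS libraries (vertical axis, RPKM, log scale) of the 11741 genes of at least 300 bases with a read, in order of level (horizontal axis, rank, log scale). The grey line is all genes and points mark named ones. The 5 progenitor markers, in red, sit between RpL41 at the top (523 RPKM) and the dashed line at 10 RPKM. The enteroendocrine peptide gene AstC does too, whereas nub, pros and the muscle myosin gene Mhc lie on the steep lower part. Other listed genes of enterocytes, enteroendocrine cells and muscle, such as Myo31DF, Orcokinin and Msp300, were on. The class of pros depends on the length used.

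Which genes dominated depended on whether length was allowed for. By reads alone, long genes came first, several of them for cytoskeletal and nuclear proteins. Msp300, a nesprin that ties nuclei to the cytoskeleton, had 6837, 7483 and 8234 CPM in replicates 1, 2 and 3, above every other gene in each library. It was followed by the spectraplakin gene shot at 3774 ± 218 CPM, the heavy spectrin gene kst at 3234 ± 183, the split-ends gene spen at 2974 ± 332 and the dioxygenase gene Tet at 2762 ± 162. The heat-inducible nuclear RNA lncRNA:Hsromega (2618 ± 300.3 CPM), the chromatin remodeller gene kis, the laminin chain gene LanA, the calmodulin-binding protein gene poe and the adhesion GPCR gene Cirl completed the first 10. The 274 genes of 10000 bases or more held 13.7% of all reads, and the 1252 genes of 5000 to 10000 bases held 27.0%.

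Per length, genes of ribosomal proteins, of the mitochondrial genome and of elongation factors were among the highest. After RpL41 the highest levels were those of mitochondrial mt:CoIII (502 ± 76.4 RPKM), the RNA of the ribonuclease RNaseMRP:RNA (486 ± 55.3), mt:CoI (481 ± 72.9) and the elongation factor gene eEF1alpha1 (447 ± 33.9). Among the genes that followed were mt:Cyt-b, RpS18, Hsc70-4, RpS27A, RpL40, RpLP2, mt:CoII and RpL27A, at 441 down to 405 RPKM. Hsc70-4, a constitutive chaperone gene, stood at 433 ± 32.3 RPKM. Outside ribosomal and mitochondrial genes, the highest protein-coding levels were those of eEF1alpha1, Hsc70-4, the elongation factor gene eEF2 (393 ± 35.5), alphaTub84B (392 ± 22.4), eEF5 and eEF1gamma. The poly(A)-binding protein gene pAbp followed at 369.5 ± 33.9, then the calponin-like gene Chd64, the chaperone gene Hsp83 and the actin gene Act5C at 332 ± 22.7. The ranges of neighbours among the 15 highest genes overlapped between libraries, so their order was not resolved.

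All 5 marker genes of the progenitor were on in every library, where 41.6% of protein-coding genes were on. They belong to a list chosen with earlier results of these data known, and esg itself is tied to the sort. The count is therefore not independent evidence of cell type. The level of esg was 296, 274 and 304 RPKM in replicates 1, 2 and 3, a mean of 291 ± 15.4. It ranked at position 78 of 16458 genes of at least 300 bases. Among the protein-coding genes nearest to it were RpS2, ATPsynC and RpL7A, at 288 to 292 RPKM, and their ranges overlapped that of esg. Sox21a, a Sox factor of stem cells and enteroblasts, was at 204, 201 and 214 RPKM and ranked at position 175. Dl, the Notch ligand, had 150.03, 156 and 154 RPKM, and its receptor N had 109, 107 and 113 RPKM. The gene hdc (headcase), which is active in adult progenitors, had 109.8, 114.8 and 118 RPKM. The libraries of esg, Sox21a and Dl did not overlap one another or those of hdc and N, while hdc and N overlapped.

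The wider list of 18 progenitor genes was on throughout, at a median of 112 RPKM, where 41.6% of protein-coding genes were on. This list was chosen with earlier results of these data known, so its count is not independent evidence of cell type. After Sox21a came the zinc-finger gene peb (182 ± 16.7 RPKM), the SoxE gene Sox100B (171 ± 12.8) and the FoxA gene fkh (170.3 ± 10.1), 3 neighbours whose libraries overlapped. The zinc-finger homeodomain gene zfh2 stood at 143 ± 9.19 and mira, whose product is a cortical adaptor of asymmetric division in neural stem cells, at 130.0 ± 8.84. The endodermal GATA factor gene GATAe (107 ± 3.15), the Id-like gene emc (99.6 ± 15.7) and its E-protein partner da (65.1 ± 0.518) were on as well. The enteroblast repressor gene klu had 83.3 ± 3.61 RPKM and the hindgut and posterior midgut homeobox gene cad 44.6 ± 6.18. The lowest members were spdo, a Notch trafficking gene (33.9 ± 5.08), the zinc-finger gene chn (23.2 ± 2.00) and sna, a Snail-family relative of esg, at 14.9, 12.97 and 14.6 RPKM. Every library of sna lay below every library of esg.

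Most of the Notch pathway was on, with 20 of 29 genes on (69.0%, against 41.6% of protein-coding genes), 6 low and 3 not detected. Of the ligands, Dl was on at 154 ± 3.25 RPKM, whereas Ser, the other Notch ligand, had 0 reads in 8443168, which allows a level of up to 0.0609 RPKM. The ADAM protease gene kuz (93.6 ± 7.39 RPKM) and the gamma-secretase genes Nct (57.2 ± 1.46), Psn (51.6 ± 3.16) and aph-1 (31.9 ± 0.466), which cleave the receptor, were on. The fourth gamma-secretase gene, pen-2, was low at 5.50 ± 0.305; it shares 47.8% of its exon bases with sbb, and no source used here says how reads of shared exons were assigned. Both E3 ligase genes for Delta endocytosis, neur (66.1 ± 2.47) and mib1 (33.0 ± 1.81), were on, as were the glycosyltransferase gene fng (81.7 ± 6.06), the corepressor genes gro and H, and numb. Su(H), the DNA-binding effector, stood at 19.5, 20.9 and 16.8 RPKM, lower per length than the receptor in each library.

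The E(spl) complex, the cluster of direct Notch targets, differed widely between members. Among its 7 bHLH repressor genes, E(spl)m3-HLH had 258, 215 and 244 RPKM and E(spl)mbeta-HLH 207, 194 and 243 RPKM. E(spl)mgamma-HLH was on at 35.6 ± 4.11 RPKM and E(spl)m7-HLH low at 8.90 ± 3.70. E(spl)m8-HLH had 1.85 ± 0.114, E(spl)m5-HLH 2 reads in all and E(spl)mdelta-HLH none. Every library of the first 2 genes lay above every library of the other 5 bHLH members. Of 4 Bearded-family genes in the complex, E(spl)malpha-BFM was on at 205, 203 and 222 RPKM, while E(spl)m2-BFM, E(spl)m4-BFM and E(spl)m6-BFM were low, at 3.32, 2.66 and 2.49 RPKM.

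**Figure D2:**
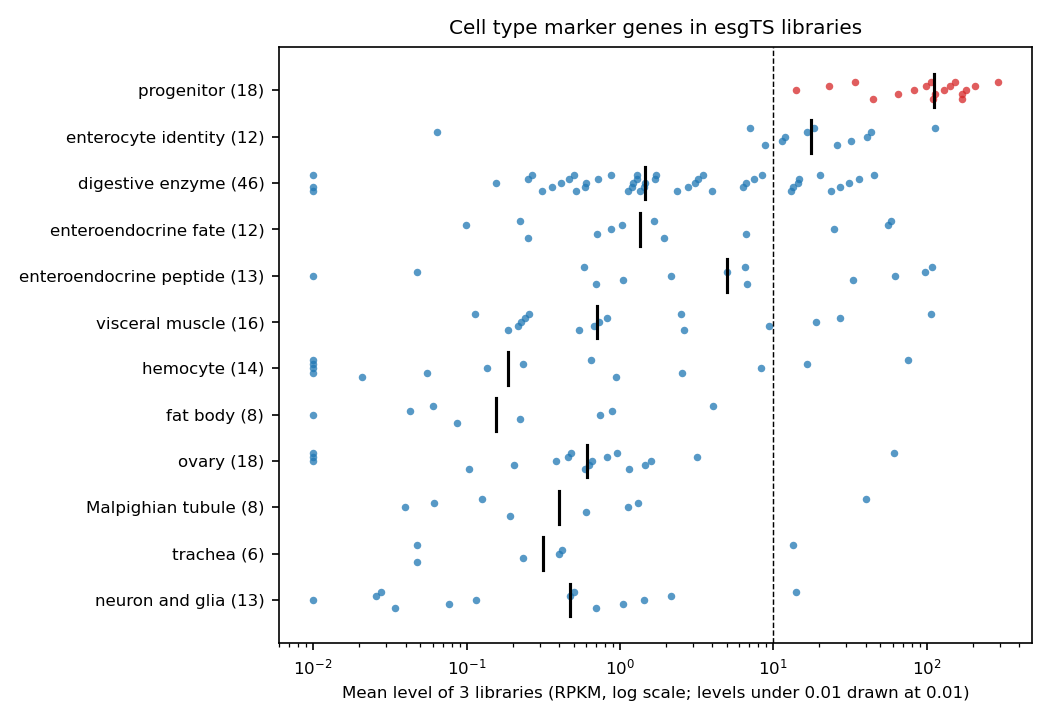
Mean level in the 3 esgTS libraries (horizontal axis, RPKM, log scale) of the genes in 12 marker lists (rows, number of genes in brackets). Each point is a gene, the bar its list's median and the dashed line 10 RPKM. All 18 progenitor genes lie to the right of the line. The medians of the digestive enzyme and of the 2 enteroendocrine lists and of all 7 lists of other tissues lie to its left. The lists were chosen with earlier results of these data known.

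Enterocyte identity genes were on at modest levels, with 8 of 12 on (66.7%, against 41.6% of protein-coding genes), 3 low and 1 not detected. Their median was 17.5 RPKM. Myo31DF, an unconventional myosin gene, led at 118, 106 and 117 RPKM. The smooth septate junction genes Ssk (43.4 ± 7.42 RPKM), CG13704 (32.3 ± 1.45) and mesh (16.6 ± 3.94) were on, and Tsp2A, of the same junction, was low at 15.9, 11.1 and 8.81 RPKM, with 1 library under 10 RPKM. The nuclear receptor gene Hnf4, which acts in enterocyte lipid metabolism, had 41.1 ± 3.19 RPKM, the class I myosin gene Myo61F 26.1 ± 1.62 and mex1 18.4 ± 0.943. The enterocyte POU factor gene nub was low at 9.29, 7.17 and 4.83 RPKM, and its libraries lay below those of all 18 progenitor genes. The microvillar cadherin gene Cad99C had 3 reads in all. In bulk samples, fewer cells of a type and less RNA per cell cannot be told apart, here and for the lineage genes that follow.

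Digestive enzymes, the products of mature enterocytes, were mostly detected but under 10 RPKM. Of 46 genes, 6 were on, 16 low, 18 trace and 6 not detected, against 41.6% of protein-coding genes on and 34.4% not detected, and the median was 1.45 RPKM. The highest were the Jonah serine protease gene Jon65Aiv at 37.9, 43.7 and 54.7 RPKM and the trypsin gene alphaTry at 36.3 ± 5.12 RPKM, whose near-identical trypsin neighbours make its reads uncertain. Several enzymes differed strongly between libraries: Jon25Biii had 39.2, 5.75 and 14.5 CPM and Jon99Fi 53.6, 8.45 and 25.5 CPM, both lowest in replicate 2 and highest in replicate 1. The maltase gene Mal-A1 had 43 reads and Amy-d 16, beside 92 for the other listed amylase gene, Amy-p. Of the undetected members, Ser6 and Lip3 had 3 reads, deltaTry 1, and gammaTry, Jon66Cii and Jon74E none. The genes deltaTry and gammaTry are among the near-identical trypsin genes, so their counts do not show absence. Jon65Aiii was on at 27.4 ± 6.05 RPKM. The summed level of the list was 346, 244 and 334 RPKM in replicates 1, 2 and 3.

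Enteroendocrine genes were split between a few high and many low ones. Of 13 peptide hormone genes, 3 were on (Orcokinin, AstC and ITP), 2 low, 6 trace and 2 not detected. The share on was 23.1%, against 41.6% of protein-coding genes, and the share not detected 15.4%, against 34.4%. Orcokinin had 95.2, 98.9 and 129 RPKM, the allatostatin C gene AstC 79.8, 99.54 and 112 RPKM and the ion transport peptide gene ITP 64.4, 61.5 and 60.7 RPKM. The gut hormone genes NPF and Tk differed widely between libraries, with NPF at 42.0, 16.9 and 0.761 CPM and Tk at 22.1, 10.5 and 0.381 CPM in replicates 1, 2 and 3. AstA, at 7.35, 1.69 and 0.381 CPM, and CCHa1, at 6.65, 5.07 and 1.14 CPM, were also highest in replicate 1 and lowest in replicate 3. AstC and Orcokinin were not: both were highest in replicate 3. Whether enteroendocrine cell content differed between the libraries was not tested. Mip had 0 reads and sNPF 1.

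Of 12 fate genes of this lineage, 3 were on, 3 low, 3 trace and 3 not detected. The homeobox gene Ptx1 stood at 59.0 ± 4.84 RPKM, the repressor gene ttk at 55.9 ± 5.74 and the proneural gene sc at 25.3, 27.7 and 22.2 RPKM. The proneural genes ac, l(1)sc and ase, which lie beside sc in the genome, had 2, 2 and 15 reads, and the paired-box gene Poxn 2. The homeodomain gene pros, the defining factor of enteroendocrine cells, was low at 1.65, 1.43 and 1.97 RPKM over a deposited length of 24892 bases. By reads alone it had 41.8 ± 6.84 CPM, beside 36.1 ± 3.97 CPM for sc, whose length is 1438 bases. Its class therefore depends on the length used. The gene tap was low at 6.63 ± 1.05 RPKM. Secretory genes were partly present: the peptide-amidating enzyme gene Phm (69.7 ± 7.97 RPKM), the carboxypeptidase gene svr (39.7 ± 1.253) and Pal1 (15.9 ± 1.09) were on, and 8 more of the 13 were low, among them the prohormone convertase gene amon (9.32 ± 2.58) and its partner 7B2 (6.20 ± 0.418). Syt1 and Syt4 were trace. Of these 13 secretory genes 23.1% were on, against 41.6% of protein-coding genes, and 0.0% not detected, against 34.4%.

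**Figure D3:**
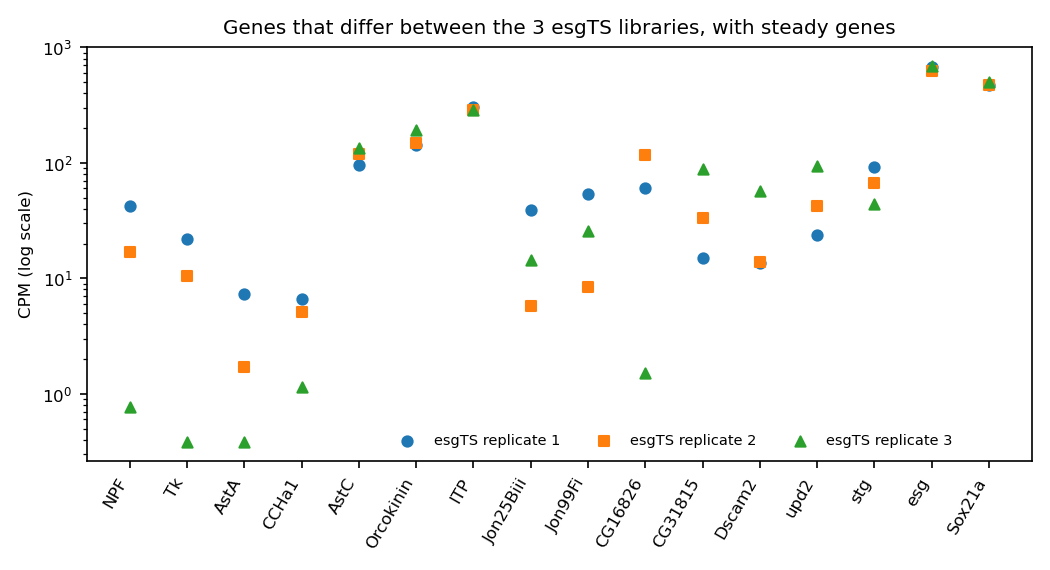
Level in each esgTS library (vertical axis, CPM, log scale; circles, squares and triangles are replicates 1, 2 and 3) of 7 enteroendocrine peptide genes, 7 other genes that differed between libraries, and esg and Sox21a. NPF, Tk, AstA and CCHa1 are lowest in replicate 3 (0.761, 0.381, 0.381 and 1.14 CPM), CG16826 is also lowest there (1.52 CPM), and CG31815, Dscam2 and upd2 are highest there.

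Genes that mark other tissues were mostly trace or not detected. Over 7 lists for muscle, hemocytes, fat body, ovary, Malpighian tubule, trachea, and neurons and glia, 9 of 83 genes were on (10.8%, against 41.6% of protein-coding genes), 11 low, 34 trace and 29 not detected (34.9%, against 34.4%). Of 16 visceral muscle genes, Msp300, how and Mef2 were on, at 108, 27.3 and 19.0 RPKM. The myosin heavy chain gene Mhc had 56 reads (0.729 ± 0.112 RPKM), Act87E 2, Mp20 2 and wupA 3. Of 14 hemocyte genes, the scavenger receptor gene crq (76.0 ± 3.71) and the GATA gene srp (16.7 ± 1.91) were on, while Hml had 2 reads and NimC1, eater, He and PPO1 none. PPO2 had 1 read, and Sr-CI and ush were low at 8.28 ± 2.66 and 2.53 ± 0.340 RPKM. The sarcomere gene Zasp52 was low at 9.39 ± 0.209 RPKM. Both lists thus held members that were on and members at 0 to 3 reads. What part other cell types had in any level given here was not tested.

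The ovary list had 1 of 18 on, piwi, a gene of the piRNA pathway, at 50.2, 67.9 and 65.8 RPKM. AGO3, of the same pathway, was low at 3.21 ± 0.435. The eggshell genes Vm26Aa and Vm26Ab had 3 and 2 reads. The germline genes osk, bam and zpg had 0 reads, nos 2 and vas 4, though 78.5% of osk exon bases and 24.6% of vas exon bases are shared with other genes. The yolk protein genes Yp1, Yp2 and Yp3 had 13, 22 and 23 reads, and Yp1 shares 54.3% of its exon bases with an antisense gene. Of 8 fat body genes none was on and the highest was the larval serum protein gene Lsp1gamma, low at 4.02 ± 1.95 RPKM. The lipoprotein gene apolpp had 73 reads, Fbp1 26, Lsp1beta and Fbp2 2 each, Lsp1alpha 1 and Lsp2 none, the last with 84.6% of its exon bases shared with an antisense gene. The tubule list had the phosphate transporter gene Picot on (40.4 ± 2.53 RPKM) and 7 trace or not detected, Uro with 2 reads, CapaR and Lkr with 1, Alp4 with 12, ct with 121 and Irk1 with 58, of whose exon bases 61.0% are shared. The trachea list had only the FGF receptor gene btl on (13.5 ± 0.915), with serp at 9 reads, pio at 12, trh at 11 and Gasp and verm at 1. Among 13 neuronal and glial genes, elav was on at 14.1 ± 1.56 RPKM with 27.9% of its exon bases shared with lncRNA:enrr, while VGlut had 0 reads, fne, repo, VAChT and Vmat 2 each. The synaptic genes nSyb and brp were low at 2.16 ± 0.234 and 1.44 ± 0.343 RPKM. The summed level of these lists ranged over the 3 libraries from 159 to 182 RPKM for muscle, 102 to 111 for hemocytes, 4.58 to 7.43 for fat body, 63.3 to 80.6 for ovary, 41.5 to 47.4 for tubule, 13.6 to 15.3 for trachea and 19.4 to 22.7 for neurons and glia.

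**Figure D4:**
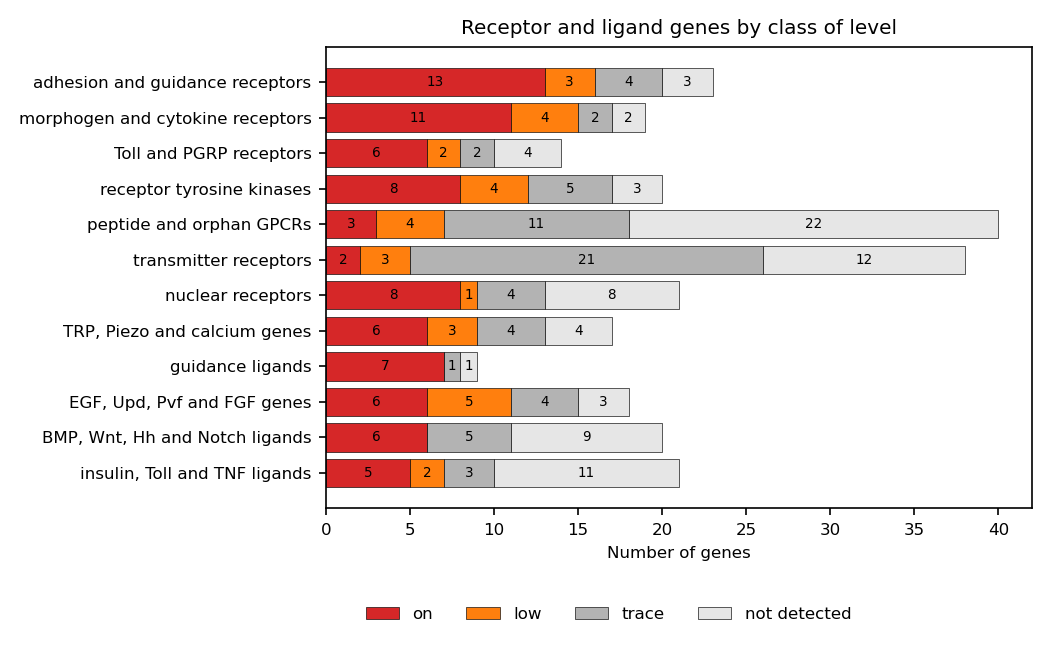
Number of genes (horizontal axis) on, low, trace and not detected in the 3 esgTS libraries for 12 lists of receptors, channels and ligands (rows). Adhesion and guidance receptors (13 of 23 on), morphogen and cytokine receptors (11 of 19) and guidance ligands (7 of 9) have most members on, and GPCRs for peptides (3 of 40) and receptors for transmitters (2 of 38) fewest. Of all protein-coding genes, 41.6% were on.

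Receptor lists differed in how many members were on. Over 6 receptor lists, 43 of 154 genes were on (27.9%, below the 41.6% of protein-coding genes), 20 low, 45 trace and 46 not detected. Among 20 receptor tyrosine kinases, 8 were on. Egfr led at 175, 165 and 174 RPKM, above every other kinase receptor in each library. The ephrin receptor gene Eph was at 60.8 ± 3.77 RPKM, the PDGF/VEGF receptor gene Pvr at 34.5, 31.4 and 35.1 RPKM, the insulin receptor gene InR at 30.7, 32.7 and 29.1 RPKM and the Wnt5 receptor relative dnt at 30.7 ± 1.90, the last 3 overlapping between libraries. The genes otk (21.3 ± 2.27), Ret (14.3 ± 1.11) and btl (13.5 ± 0.915) were on at lower levels. The second FGF receptor gene, htl, had 0 reads (up to 0.0868 RPKM), sev and Drl-2 had 1 each, and Alk was trace with 13.

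Morphogen and cytokine receptors were largely on, 11 of 19 (57.9%, against 41.6% of protein-coding genes). The JAK/STAT receptor gene dome was the highest at 140.0, 129.9 and 136 RPKM, ahead of N. The BMP and activin receptor genes babo (70.1 ± 4.89 RPKM), tkv (57.9 ± 4.27), sax (43.7 ± 1.03) and put (38.9 ± 0.743) were on and wit was low (6.16 ± 1.69). Of the Wnt receptors, fz2 was at 69.3, 72.9 and 69.5 RPKM, fz4 at 26.9 ± 1.88 and the co-receptor gene arr at 38.2 ± 2.05, while the founding member fz was low with 44 reads (1.38 ± 0.447). The Hedgehog co-receptor gene boi stood at 79.7, 77.1 and 77.8 RPKM and ihog at 16.1 ± 2.24, but smo, the signal transducer, was low (8.40 ± 0.588) and ptc, the ligand receptor and a target of the pathway, trace at 0.450 ± 0.120 with 21 reads. Both TNF receptor genes, grnd and wgn, had 1 read each over the 3 libraries.

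Among innate immune receptors, 6 of 14 were on (42.9%, against 41.6% of protein-coding genes), 5 of them genes of peptidoglycan recognition proteins. The IMD pathway receptor gene PGRP-LC had 85.1, 79.8 and 78.2 RPKM, PGRP-LA 67.3 ± 3.45 and the intracellular sensor gene PGRP-LE 29.9 ± 2.03 RPKM. PGRP-SD was on and varied between libraries, at 15.1, 15.9 and 28.5 RPKM, as did PGRP-LF, which shares 44.4% of its exon bases with UGP. Of 8 Toll family genes, 18w was on at 11.5 ± 1.80, Tollo and Tl were low (4.63 ± 1.92 and 1.46 ± 0.0260), Toll-6 had 2 reads, and Toll-4 and Tehao had 0, the latter sharing 63.1% of its exon bases with an antisense gene.

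G-protein-coupled receptors for peptides and receptors for transmitters had the smallest shares of members on among the receptor lists. Of 40 peptide and orphan receptor genes, 3 were on (7.50%) and 22 not detected (55.0%), against 41.6% and 34.4% of protein-coding genes. Those on were Tre1 (106, 96.4 and 91.7 RPKM), known for guiding germ cell migration, moody (82.2, 78.2 and 86.4 RPKM), known from the blood-brain barrier, and mthl1 (18.4 ± 0.866 RPKM). Receptors for gut hormones were low, trace or not detected: CNMaR had 7.28 ± 1.18 RPKM, NPFR 3.99 ± 1.08 and CCHa1-R 2.76 ± 0.953, while both tachykinin receptor genes, TkR99D and TkR86C, had 0 reads and AstC-R1 and AstC-R2 had 1 and 0. AstC itself was on in the same libraries. The other undetected receptors had 3 reads (Dh31-R), 2 (MsR2, CrzR, SPR and rk) or 1 (CapaR, PK1-R, AkhR, Lkr, MsR1 and SIFaR). Dh44-R1, CCKLR-17D1, PK2-R1, PK2-R2, FMRFaR, CCAP-R and Proc-R had none. Of 38 transmitter receptor genes, the tyramine receptor gene TyrR (32.7, 38.2 and 32.7 RPKM) and GABA-B-R2 (12.7 ± 1.34) were on, and the octopamine receptor gene Octbeta2R was low (6.29 ± 1.28). The acetylcholine receptor subunit genes nAChRalpha1, nAChRalpha2 and nAChRbeta3 had 0 reads; all exon bases of nAChRbeta3 lie within Ets21C, which leaves its count uncertain. The adenosine receptor gene AdoR was low at 7.72 ± 0.450, with 60.1% of its exon bases shared with an antisense gene. The dopamine receptor genes Dop1R1, Dop1R2 and Dop2R had 2, 1 and 2 reads, the serotonin receptor genes 5-HT2B and 5-HT1B 3 and 1, Rdl and nAChRbeta1 1 each, and Oamb and mAChR-B none. The median over the transmitter list was 0.193 RPKM.

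Adhesion receptors were among the highest of all receptors. The integrin genes mys (229, 211 and 230.2 RPKM), mew (212 ± 11.2 RPKM) and scb (172 ± 15.4) were on with Itgbn (71.0 ± 5.43), whereas the alpha subunit gene if had 1 read. The E-cadherin gene shg stood at 178, 164 and 171 RPKM, and the neuronal cadherin gene CadN was trace with 7 reads. The semaphorin receptor genes PlexA (94.4 ± 6.56) and PlexB (30.2 ± 1.65), the Slit receptor genes robo1 (41.7 ± 1.40) and robo2 (79.3 ± 2.21, with 22.9% of exon bases shared with an antisense gene) and the netrin receptor gene fra (73.0 ± 3.09) were on, while robo3 had 0 reads. The atypical cadherin genes ft and ds had 0.705 ± 0.136 RPKM and 1 read.

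Of the ligands in 4 lists, 24 of 68 were on (35.3%, against 41.6% of protein-coding genes), 7 low and 13 trace. The other 24 were not detected (35.3%, against 34.4%). Among EGF ligands, spi, which stem cells can use in an autocrine way, was at 149.9, 148 and 143 RPKM. Krn was on at 25.3 ± 5.31 RPKM (sharing 21.3% of exon bases with Ndfip), vn, the muscle ligand, was low at 7.22, 10.5 and 13.7 RPKM, and the germline ligand gene grk was trace with 12 reads. The protease gene rho, which releases active Spi, was low (2.01 ± 1.02), and the feedback inhibitor gene aos was on at 61.9 ± 3.57. Of the Upd cytokines, upd3 was at 67.8, 76.5 and 87.7 RPKM and upd2 at 12.02, 21.5 and 47.7 RPKM, while upd1 was trace at 1.23, 1.30 and 0.487 RPKM. The libraries of upd2 spanned a 3.96-fold range, highest in replicate 3 and lowest in replicate 1.

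In the list of BMP, Wnt, Hedgehog and Notch ligands and their modulators, 6 of 20 genes were on, and in that of insulin, Toll and TNF ligands 5 of 21, against 41.6% of protein-coding genes. Of the PDGF/VEGF ligands, Pvf2 was on at 28.3, 27.0 and 27.5 RPKM, with Pvf1 and Pvf3 trace at 0.734 ± 0.322 and 0.662 ± 0.119 RPKM. The BMP ligand gene gbb was on at 53.8 ± 3.11 and the activin-like gene myo at 81.7 ± 2.96, while dpp had 3 reads and daw 7. Wnt5 was on at 20.3, 23.5 and 19.95 RPKM; wg had 2 reads, Wnt2 3, wntD 1, and Wnt4, Wnt6 and Wnt10 none. The BMP modulator genes cv-2 and sog were on at 18.2 ± 1.03 and 11.8 ± 0.502 RPKM, and tsg had 0 reads. The ligand gene hh was trace with 24 reads. None of the 8 insulin-like peptide genes was on; Ilp6 was low with 26 reads, Ilp8 trace with 5, Ilp7 had 1, and Ilp1, Ilp2, Ilp3, Ilp4 and Ilp5 had none. Of these, Ilp1 shares 40.9% of its exon bases with CG32052. The insulin-binding protein gene ImpL2 was on at 22.1 ± 0.804, although 61.9% of its exon bases are shared with CG46460. The FGF ligand genes bnl, ths and pyr were low (2.16 ± 0.0762, 1.63 ± 0.623 and 1.54 ± 0.722 RPKM) and jeb, the Alk ligand, had 0 reads, as did the Sev ligand gene boss. The rhomboid gene stet had 3 reads.

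The TNF gene egr was one of the highest ligands, at 159, 148 and 152 RPKM, in libraries where its receptor genes grnd and wgn had 1 read each. For grnd and wgn, 3 reads over the 3 libraries would be 0.169 and 0.137 RPKM. Of the exon bases of grnd, 13.1% are shared with kon, and wgn shares none. The pleiotrophin-like gene miple2 was at 132, 132 and 136 RPKM, the Toll ligand gene spz at 25.7 ± 1.37 against 1.46 ± 0.0260 for its receptor Tl, and the brain hormone gene Ptth at 13.97, 13.5 and 14.5 RPKM. Guidance ligands were on in 7 of 9 cases (77.8%, against 41.6% of protein-coding genes). Among them were Sema2a at 127, 125 and 132 RPKM, sli at 104 ± 6.93, Sema5c at 81.5 ± 9.24 and Ephrin at 46.0 ± 3.63. Of their receptor genes, PlexA, PlexB, robo1, robo2 and Eph were on, while robo3 was not detected. Of the remaining Toll and Torso ligand genes, spz4 had 3 reads, tsl 1, and NT1, spz3 and spz5 none. NetA had 0 reads and NetB 11, while their receptor fra was on.

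**Figure D5:**
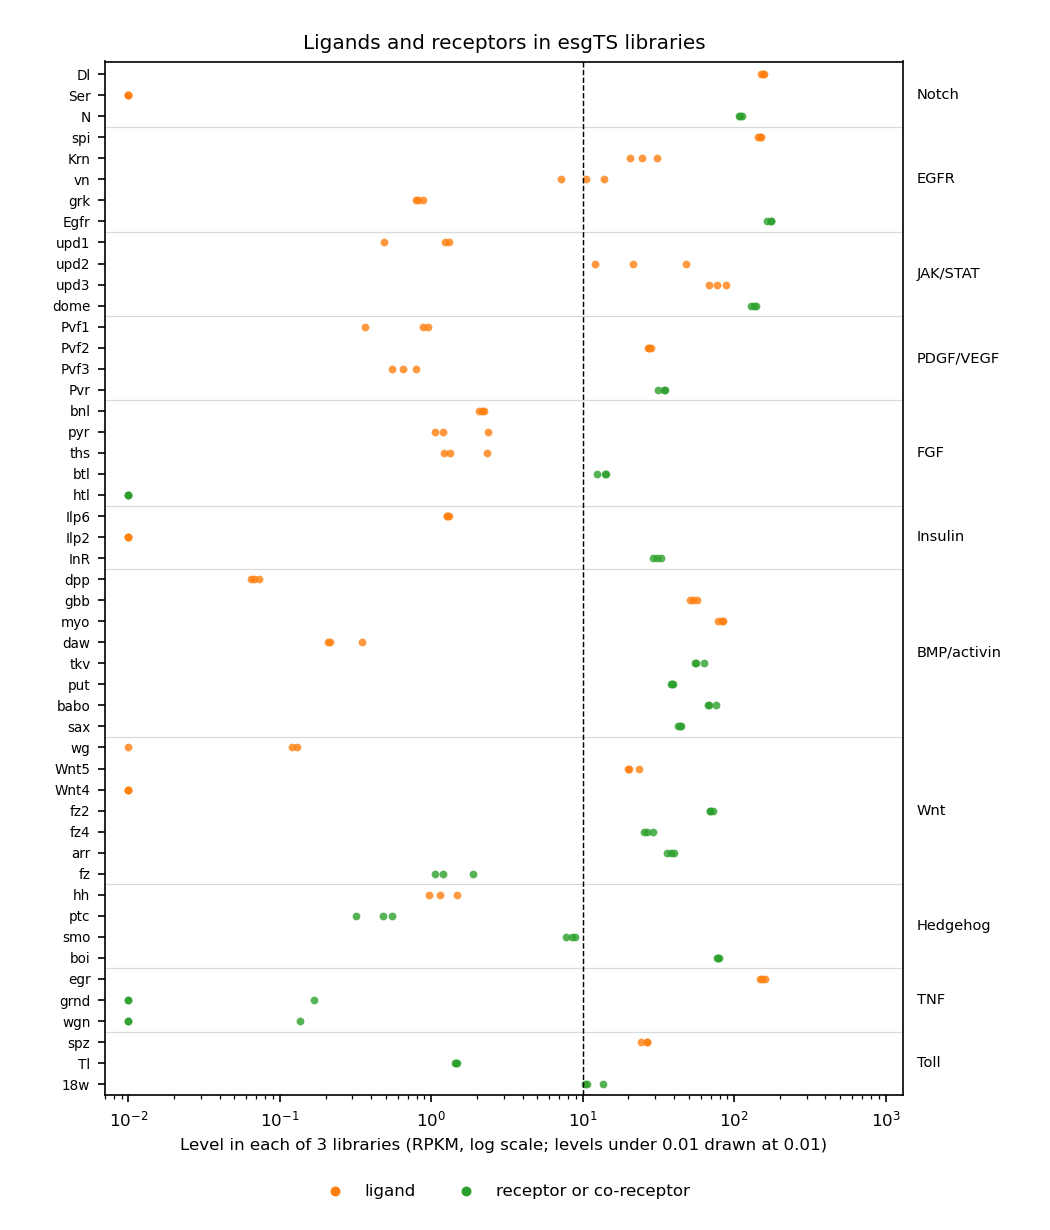
Level in each of the 3 esgTS libraries (points; horizontal axis, RPKM, log scale, levels under 0.01 drawn at 0.01) of ligands (orange) and receptors or co-receptors (green), by pathway; the dashed line is 10 RPKM. Ligand and receptor are both on for Notch (Dl, N), EGFR (spi, Egfr), JAK/STAT (upd3, dome), PDGF/VEGF (Pvf2, Pvr) and BMP (gbb, tkv); for insulin (InR), FGF (btl) and Wg (fz2, arr) the receptor is on without a listed ligand of that receptor on, except Wnt5 in the Wnt family, and for TNF the ligand egr is on without grnd or wgn.

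Nuclear receptors, some of which bind hormones or lipids inside the cell, were on in 8 of 21 cases. That share, 38.1%, was near the 41.6% of protein-coding genes on. Eip75B led at 62.2, 64.8 and 64.9 RPKM, followed by Hnf4, the ecdysone receptor partner gene usp (36.3 ± 1.91 RPKM) and ftz-f1 (26.5 ± 1.97, with 29.4% of exon bases shared with a long non-coding RNA). The ecdysone receptor gene EcR was on at 19.8, 20.3 and 20.6 RPKM, as were Hr78, Hr96 and Hr39. The receptor genes tll, dsf, kni and eg had 0 reads, and svp, knrl and Hr83 had 1 each. Of 17 channel and calcium genes, the TRPA gene pain was at 129, 125 and 123 RPKM, the calcium pump gene SERCA at 72.8 ± 4.08 and the calcium sensor gene Stim at 67.6 ± 1.63. The mechanosensitive channel gene Piezo was low at 8.76, 10.2 and 10.1 RPKM, with 1 library under 10 RPKM, and TrpA1 was trace with 8 reads. The IP3 receptor gene Itp-r83A was on at 24.9 ± 0.419 RPKM, while trp, trpl and nompC had 1 read each and Trpml none.

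Cell cycle genes were on in 34 of 36 cases (94.4%, against 41.6% of protein-coding genes), at a median of 37.2 RPKM. The S phase genes RnrS (111 ± 9.72 RPKM) and PCNA (96.9 ± 4.97) were highest, then geminin (81.2 ± 0.8002), which restrains replication licensing, and the mitotic cyclin gene CycA (73.9 ± 3.47). The cell cycle brakes dap, a Cdk inhibitor (58.1 ± 4.57), Rbf (53.7 ± 6.58) and fzr (63.9 ± 6.31) were on beside them. The Cdc25 phosphatase gene stg, which triggers mitosis, had the widest spread of the list, at 29.9, 21.6 and 14.4 RPKM in replicates 1, 2 and 3, highest in replicate 1 and lowest in replicate 3. CycE was at 16.9 ± 3.16. The members called low were aurA (11.5 ± 2.72) and Mcm7 (6.05 ± 1.17), which shares 81.7% of its exon bases with an antisense gene.

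The genes of P-bodies and mRNA decay, which the title of the series concerns, were on in 25 of 26 matched cases. That is 96.2%, against 41.6% of protein-coding genes, and the median was 51.3 RPKM. Not1, the scaffold of the CCR4-NOT deadenylase, led at 151, 151 and 159.9 RPKM. The P-body repressor genes tral (140.0 ± 6.67 RPKM) and me31B (118 ± 4.10) followed with AGO1 (119.6 ± 7.91), and the decapping enzyme gene DCP2 was at 93.5 ± 7.46, above its partner DCP1 at 37.5 ± 1.86 in each library. Patr-1, the decapping activator, stood at 48.9, 52.9 and 53.5 RPKM. The exonuclease gene pcm had 38.3 ± 3.60 and the deadenylase genes Pop2 and twin 49.97 ± 2.71 and 37.7 ± 2.11. LSm-4 had 0 reads, and all of its exon bases are shared with CG17768, so its level cannot be read from these counts. Of 23 further RNA-binding regulators, 19 were on (82.6%). After pAbp came lost (254 ± 16.7 RPKM), the stress granule gene rin (188 ± 5.47) and caz (133 ± 12.98). Imp, an mRNA-binding growth regulator, had 61.7 ± 5.43 and lin-28, a stem cell regulator of let-7, 26.7, 37.0 and 32.7 RPKM. The germline regulators nos and bru1 had 2 and 3 reads.

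Heat shock and early response genes were on in 20 of 27 cases (74.1%, against 41.6% of protein-coding genes), at a median of 87.6 RPKM. The small heat shock genes Hsp26 (230.5 ± 21.4 RPKM), Hsp23 (165 ± 29.8) and Hsp27 (119 ± 11.4) and the inducible Hsp68 (168 ± 22.3) were high. The AP-1 genes kay (135 ± 14.6) and Jra (87.6 ± 16.4) and their feedback phosphatase gene puc (135 ± 13.8) were on too, as were Gadd45 (118 ± 21.2) and Atf3 (106 ± 3.05). Of the 6 near-identical Hsp70 genes, between which reads cannot be assigned with certainty, Hsp70Bb was highest at 44.5 ± 6.10. The activity genes Hr38 and sr had 7 and 9 reads. The cells had been kept at 29 °C and dissociated with elastase for 1 hour before the sort, per the labels' protocols, and no undissociated sample was analysed here, so these steps and the resting state cannot be told apart. Hsp22 had 0 reads, with all exon bases shared with CG4456.

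The 3 libraries agreed closely for most genes. The common biological coefficient of variation was 6.78% over 7428 genes (edgeR), and pairs of libraries correlated at 0.987 to 0.990 across genes (Pearson r of log2(CPM + 1), across genes that are not independent replicates). The counts of each of the 3 pairs still differed by more than sampling noise, with a chi-square per degree of freedom of at least 2.45. That measure covers counting error only and does not show whether libraries came from separate preparations. Among 5826 genes with a mean of at least 20 CPM, the median ratio of the highest to the lowest library was 1.15, and 40 (0.687%) exceeded 2-fold. The widest was CG16826, at 60.2, 116 and 1.52 CPM. Next were Jon99Fi at 53.6, 8.45 and 25.5 CPM, CG31815 at 15.1, 33.1 and 87.9 CPM, CG17264 at 8.05, 37.9 and 15.6 CPM and the adhesion gene Dscam2 at 13.7, 13.9 and 57.1 CPM. CG32368, 28SrRNA-Psi:CR45859, upd2, CG13482 and CG13492 completed the 10 widest, at 4.10-fold to 3.45-fold. Of the 40, replicate 1 was highest in 12, replicate 2 in 8 and replicate 3 in 20.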

How the data were processed

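Values were the raw read counts per gene that the authors deposited, beside each gene's length. Tools credited in the submitters' processing notes were STAR 2.7.3a, Subread 2.0.0 with featureCounts, cutadapt 2.9 and SAMtools 1.10, with no settings. Per the labels' protocols, 30000 to 50000 cells were sorted per replicate and rRNA-depleted libraries were made with the Ovation SoLo system. No source used here gives the build, annotation, strand setting or treatment of duplicate reads, and reads of overlapping genes are uncertain. The deposited length equalled that in the BDGP6 annotation for 17610 of 17760 matched genes (99.2%). That annotation gave biotypes and overlaps, which are stated where at least 20% of exon bases are shared. Of 396 protein-coding genes with all exon bases shared with 1 other gene, 392 were not detected. These 392 are among the 4787 protein-coding genes counted as not detected. Levels of genes with partly shared exons may therefore be too low.

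Only the esgTS columns were described, with no test between groups and no p-value; the authors' deposited comparison table was not used. CPM and RPKM used the library total over named genes; 1 row whose name is blank in the deposited file (at most 1 read per library) was left out. Precision at low levels was set by depth: 3 reads were 1.01 to 1.14 CPM. TMM factors and dispersion came from edgeR 4.0.16, size factors from DESeq2 1.42.0 (R 4.3.3), and the remaining values from Python 3.11.15 with pandas 2.3.3. The classes and the dispersion were tested on simulated data. Among the gene names, 5 had been altered into dates, and those genes are not named.

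The genes were chosen with earlier results of these data known: 30 lists, and 2 (gut region and sex genes) added after levels were seen. Of 606 symbols, 604 were matched; no row bears the symbols nan or LSm5. The rule named the 5 markers, the 15 highest by RPKM, the 10 highest by CPM, the 4 highest and all undetected members of each list, the 10 widest between libraries and the 5 nearest to esg, 298 genes in all, some of which are not reported here. Other members, and the genes of families and chromosomes in the closing part, were picked after their values were seen. Alternatives tried were other thresholds (5 and 20 RPKM), scalings, denominators, thinning and leaving out each replicate.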

Additional observations from a re-analysis of the deposited data

How the results depend on the processing

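No paired analysis was possible because the results come from 1 group and no test. The number of genes on was 4751 to 7124 under 13 alternatives (6143 as reported; 6883 at 5 RPKM, 4751 at 20 RPKM), among them 6215 to 6274 without each replicate. Genes not detected numbered 7692 after thinning to the smallest library and 8024 to 8099 without each replicate, against 7623. The 100 genes with most reads held 14.3% to 14.7% of reads without each replicate. The 100 genes highest by TPM, a set chosen anew, held 9.63% of TPM. Members on over all lists ranged from 206 (20 RPKM) to 290 (TPM), against 250. TMM, DESeq2 size factors, the total over protein-coding genes, thinning, dropping the minimum of reads and leaving out any replicate moved no list's count by more than 1.5-fold.

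At 20 RPKM, members on were 3 digestive enzymes, 5 enterocyte identity genes, 1 hemocyte gene, 3 gut region genes, 3 BMP, Wnt, Hh and Notch ligands, 0 neuronal genes, 5 nuclear receptors, 3 Toll and PGRP receptors, 1 transmitter receptor, 5 receptor tyrosine kinases, 2 sex genes and 0 tracheal genes. At 5 RPKM they were 12 digestive enzymes, 4 transmitter receptors and 6 secretion genes, and with TPM 13, 5 and 7. Without length scaling they were 5 enteroendocrine fate genes, 4 hemocyte genes, 2 neuronal genes, 5 peptide GPCRs, 4 transmitter receptors, 6 secretion genes and 5 muscle genes. The mean in place of each library gave 10 digestive enzymes. Named genes over 10 RPKM were 2.71 times higher as TPM by the median, a change of unit; the order by level within a library is the same on both scales. A level under about 1 CPM rests on 3 reads or fewer per library and is not resolved.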

Other observations

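Of 92 protein-coding genes with cytosolic ribosomal protein symbols, 83 were on (90.2%, against 41.6% of protein-coding genes), at a median of 287 RPKM. The 9 others were like-named copies: RpL10Aa, RpL22-like, RpL7-like, RpS10a and RpS28a with 0 reads, RpL37b and RpS28-like with 1, RpS5b with 5 and RpS19b with 6. RpL7-like shares 98.8% of its exon bases with CG34164. Their counterparts RpL22 (172 ± 15.7 RPKM, with 34.3% of its exon bases shared with lncRNA:CR42491), RpS5a (285 ± 23.5), RpS10b (173 ± 11.03) and RpS19a (244 ± 15.6) were on. Of 47 genes with proteasome symbols, 31 were on (66.0%) and 13 not detected (27.7%), among the latter Prosalpha3T, Prosalpha6T, Prosbeta2R1 and Rpt6R. Mitochondrial ribosomal protein genes were on in 72 of 73 cases (98.6%) and complex I genes in 31 of 40 (77.5%).

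Families of specialised tissues had few members on, where 41.6% of protein-coding genes were on and 34.4% not detected. Of 59 odorant receptor genes none was on and 43 were not detected (72.9%). Of 60 gustatory receptor genes only Gr77a was on (23.8 ± 2.04 RPKM), and of 60 ionotropic receptor genes only Ir62a (14.1 ± 2.82). Cuticular protein genes were on in 1 of 70 cases (Cpr51A, 49.1 ± 6.36) and Osiris genes in 0 of 23. Detoxification genes on were 14 of 83 cytochrome P450 genes (16.9%) and 10 of 35 UDP-glycosyltransferase genes (28.6%), with Ugt303B1 at 113 ± 5.06 RPKM. Glutathione transferase genes were on in 16 of 35 cases (45.7%, near the share of protein-coding genes), with GstD1 at 212 ± 12.9 RPKM. Among gap junction genes, Inx3 was on at 121 ± 1.85 while Inx2 was low at 2.59 ± 0.581.

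Of 16 homeotic and gut region genes, 5 were on (31.2%, against 41.6% of protein-coding genes). These were exd (88.4 ± 2.07 RPKM), exex (87.2 ± 9.03), dve (21.5 ± 1.41), odd (17.4 ± 4.54) and the labial gene lab at 15.9, 27.1 and 24.1 RPKM. The homeotic genes pb, Dfd, Scr and Ubx had 0 reads, abd-A 1, Antp 2, vvl 2, tio 3 and Abd-B 4, and 50.1% of Antp exon bases are shared with CG46458. The flies were female per the labels. The dosage compensation RNA gene lncRNA:roX1 had 24 reads and lncRNA:roX2 2, the 23 protein-coding genes annotated to the Y chromosome had 6 reads together, and Sxl stood at 82.4 ± 1.252 RPKM. The sex genes tra (42.9 ± 9.13), msl-2 (16.2 ± 2.23) and dsx (13.7 ± 1.01) were on.

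Genes of the small chromosome 4 stood apart in level. Of its 79 protein-coding genes, 45 (57.0%) were on and 6 not detected, and those on had a median of 79.1 RPKM, at 74.8, 80.4 and 81.0 in replicates 1, 2 and 3. On arms 2L, 2R, 3L, 3R and X the medians of genes on were 38.7, 40.6, 38.6, 35.6 and 39.7 RPKM, with 37.8% to 45.7% on. No test was made of these differences.

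Long non-coding RNA genes on at high level included lncRNA:CR34335 (401 ± 52.7 RPKM), lncRNA:CR42862 (253 ± 24.5) and the snoRNA host gene Uhg5 (123 ± 10.2). Of 2772 genes of the annotation's ncRNA class, 130 were on (4.69%, against 34.5% of all named genes).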
